A study of Mus musculus with 6 samples.

Results

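The genes described here are 43 genes of the extracellular matrix, chosen by name, out of 22579 genes in the deposited count table. Each was found by matching its Ensembl identifier to a symbol in GENCODE M21, the gene annotation of the mouse genome build mm10. They were sorted by role into 6 groups: 5 fibrillar collagen chains, 5 chains of type VI and fibril-associated collagens, 14 basement membrane genes, 5 small leucine-rich proteoglycans, 9 glycoproteins and elastic fibre genes, and 5 genes of crosslinking and remodelling. RNA was measured by SMART-seq2, a whole-transcript cDNA method without molecular identifiers, in 6 libraries of about 1000 mouse THY1-positive spermatogonia each at day 4. The controls are 3 libraries of littermates labelled Control, and the knockouts are 3 libraries labelled Ddx20 knockout, also abbreviated cKO. The cell type of the deletion, the Cre line, the part deleted and the alleles of the controls are not stated in the sources used here, and neither is the age beyond day 4. DDX20 is a DEAD-box RNA helicase of the SMN complex, and the series asks how the transcriptome differs when it is lost. The question here is how matrix genes of different roles compared between the 2 genotypes.

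The extracellular matrix is the protein scaffold outside cells. Fibrillar collagens form rope-like triple helices that bundle into fibres, and small leucine-rich proteoglycans such as decorin bind those fibres and control their width and spacing. Basement membranes are thin sheets of type IV collagen, laminin, nidogen and perlecan. In the testis such a sheet surrounds the seminiferous tubule, spermatogonia rest on it, and Sertoli cells and peritubular myoid cells build it, while collagens and small proteoglycans are mostly known as products of myoid and interstitial stromal cells.

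Ddx20 itself was checked first. It had 668, 383 and 531 reads in control libraries and 128, 168 and 119 in knockout libraries, a log2 fold change of −1.89 with SE 0.26 and an edgeR adjusted p of 0.0118, so that its levels went with the labels. Total counts ran from 8428871 in control 1 to 12497967 in knockout 3. Knockout 1 and knockout 2 differed by a mean chi-square per gene of 1.78, where 1 is the value for pure sampling noise, and the remaining 14 pairs gave 11.96 to 104. They were entered as separate libraries, and values with that pair counted as 1 library are given for the members, the pathway lists and the marker lists, since p-values that treat them as independent may be too small. The labels tie no library to a named animal or litter, so the p-values here reflect the spread among these 6 libraries alone, and that spread may be technical. Spermatogonial transcripts were abundant, with 26922 to 36910 reads of the germ cell gene Dazl per library, while Thy1, the gene of the sorted surface protein, had 64 to 143.

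The coding sequences show what sets the main groups apart, and were read from GENCODE M21 transcripts. A collagen helix needs glycine at 1 residue in 3, which appears as a GGN codon followed by 2 codons of any kind. The first stretch below lies in Col3a1 (chr1:45311538-45349706, plus strand), codons 164 to 193, and belongs to an unbroken run of 344 such triplets. The second lies in the basement membrane chain Col4a1 (chr8:11198423-11312826, minus strand), codons 323 to 352, where a gap of 6 codons interrupts the pattern. Capitals mark the GGN codons of the runs.
Col3a1: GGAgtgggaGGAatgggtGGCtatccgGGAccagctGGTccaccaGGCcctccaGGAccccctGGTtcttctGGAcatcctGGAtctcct
Col4a1: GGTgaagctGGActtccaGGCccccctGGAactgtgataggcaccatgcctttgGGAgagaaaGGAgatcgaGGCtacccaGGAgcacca
The longest run spanned 338 to 344 triplets in the 5 fibrillar chains. It was 40 triplets in Col4a1 and 66 in Col4a2, whose patterns were broken into 22 and 24 runs of at least 5 triplets.

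Small leucine-rich proteoglycans are built from repeats with leucines at fixed positions followed by asparagine. The next 2 stretches each show 1 such repeat, codons 169 to 177 of Ogn (chr13:49608046-49624501, plus strand) and codons 117 to 125 of Bgn (chrX:73483602-73495933, plus strand). Capitals mark leucine codons at positions 1, 4 and 6 and an asparagine codon at position 9.
Ogn: TTAgaagaaCTTacaCTTgctgaaAAC
Bgn: CTCtacgccCTGgtcTTGgtaaacAAT
This pattern matched 4 times in Dcn, 6 in Lum, 2 in Ogn, 4 in Bgn and 8 in Fmod. Among the other 38 members it matched once, in Timp3.

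In the knockout libraries 5 matrix genes rose and 1 fell by edgeR. Those that rose were 3 small leucine-rich proteoglycan genes, Lum, Ogn and Dcn, and the secreted protein genes Mgp and Sparc, by 2.25- to 3.12-fold in mean level. Nid2, the gene of the basement membrane linker nidogen-2, fell to 0.584 of its control level. The edgeR quasi-likelihood test was used on counts with TMM scaling, a per-library factor that centres most genes on no change, and calls were made below 0.05 after Benjamini-Hochberg adjustment across the 14766 genes tested. All 43 members passed the filter on low counts. Over all genes 4.83% were called, 2.03% higher and 2.80% lower. In bulk libraries, fewer or more cells of a type and less or more RNA per cell cannot be told apart.

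Over the 43 members the median log2 fold change was 0.48, against 0.01 over all genes tested, and 35 were positive. At an unadjusted p under 0.05, 12 members were higher and 4 lower, where the shares over all genes were 11.3% and 12.8%. The lowest knockout library stood above the highest control library in 13 members, and the highest knockout below the lowest control in 4, against 16.8% and 15.8% of all genes. The summed level of the 43 genes was 1747 to 2461 CPM (counts scaled to a fixed TMM-adjusted library size) in the controls and 3066 to 3378 CPM in the knockouts. Scaling by total counts alone moved the median of all genes to −0.26, so the directions given here are relative to TMM scaling. Summed markers of peritubular myoid, Sertoli, Leydig and endothelial cells, macrophages and T cells, described at the end, were also higher in every knockout than in every control, and their part in these results was not tested.

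**Figure D1:**
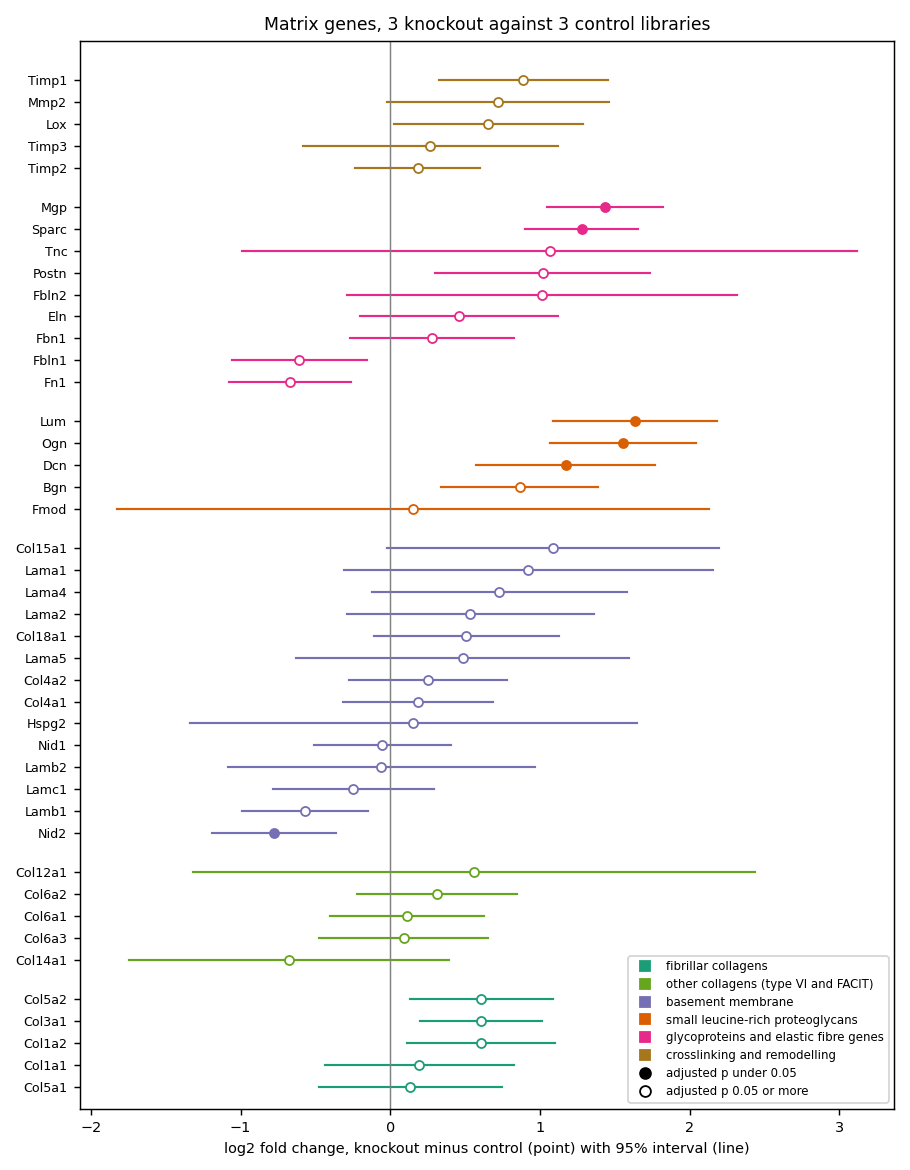
Log2 fold change of each of the 43 matrix genes, knockout minus control (points), with its 95% interval (lines), by role group; filled points have an edgeR adjusted p under 0.05. The 6 filled points are Mgp, Sparc, Lum, Ogn and Dcn to the right of 0 and Nid2 to its left.

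Counting knockout 1 and knockout 2 as 1 library ended all 6 calls in edgeR, which then called 0.00649% of genes, 1 in all, and none of the members. In that setting 12 members had an unadjusted p under 0.05 in edgeR, where 2150 of all 15406 genes tested had one. With the same pair as 1 library, DESeq2 called Dcn, Lum, Ogn, Mgp and Sparc higher among 0.909% of genes higher. That share is over the 22342 genes with a p-value, a wider set than in edgeR or limma-voom. DESeq2 gave some members no adjusted p in this setting, so those could not be called. In limma-voom 9 members were then called higher, where the share over all genes was 1.66%, namely those 5 with Col3a1, Bgn, Postn and Timp1. Neither of these 2 tools called a member lower with the pair as 1 library. With all 6 libraries DESeq2 called 9 members higher and 2 lower, and 7.03% of its 22574 genes with a p-value in either direction. Limma-voom called 18 and 4, and 19.5% of 14766 genes.

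Leaving out single libraries changed the calls as well. Without control 1 edgeR called 9 members higher and none lower, with 5.41% of all genes called, and Dcn was lost at an adjusted p of 0.0514. Without control 2 the called members were Lum, Ogn, Mgp and Sparc, with 1.17% of all genes. Without control 3 there were 7 higher members, with 5.27% of all genes. Nid2 was called in none of these 3 settings, with adjusted p values from 0.0544 to 0.0636. Without knockout 1, 2 or 3 edgeR called 0.0325%, 0.0650% and 0.0194% of genes and no member. In these settings 12, 11 and 18 members had an unadjusted p under 0.05, whether or not they had one with all 6 libraries. Over all genes tested, 2179 of 15389, 2154 of 15385 and 3420 of 15438 had one.

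Decorin, encoded by Dcn (chr10:97479609-97518143, plus strand), binds collagen fibrils and growth factors and was the most abundant member per length. Its level was 204, 229 and 438 CPM in the controls and 629, 635 and 700.0 CPM in the knockouts. All knockouts were above all controls, and control 3 stood well above the other controls. The mean moved from 291 ± 129 CPM to 655 ± 39.5 CPM (SD, n = 3 in each group), a log2 fold change of 1.17 with SE 0.27 at an edgeR adjusted p of 0.0383. Its log2 fold change was 0.97 without control 1 and 1.59 without control 3, and the adjusted p was 0.10 without control 2.

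Lumican, encoded by Lum (chr10:97565128-97572703, plus strand), is a keratan sulfate proteoglycan that also binds collagen fibrils. Lum had 201, 137 and 357 reads in control libraries and 679, 695 and 660 in knockout libraries, or 19.2, 13.0 and 27.4 CPM in the controls and 63.1, 63.0 and 59.4 CPM in the knockouts. The lowest knockout was above the highest control, and the 3 knockouts lay close together. In mean level it moved from 19.9 ± 7.20 CPM to 61.9 ± 2.12 CPM, 3.12-fold, for a log2 fold change of 1.63 with SE 0.25 (95% interval 1.09 to 2.18) and an edgeR adjusted p of 0.0119. It had the highest log2 fold change of the 43 members.

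Ogn encodes osteoglycin, also called mimecan, and stood at 23.0, 20.6 and 36.3 CPM in the controls and 80.4, 82.5 and 71.9 CPM in the knockouts. Again no control reached a knockout, and control 3 was the highest control. The log2 fold change was 1.55 with SE 0.22, 2.94-fold from 26.6 ± 8.43 CPM to 78.3 ± 5.58 CPM, at an edgeR adjusted p of 0.0119.

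Biglycan, encoded by Bgn, is a close relative of decorin. Its level was 87.0, 41.1 and 58.7 CPM in the controls and 119, 119 and 102 CPM in the knockouts. The groups did not overlap, but control 1 stood apart from the other controls, and the log2 fold change of 0.86 with SE 0.24 had an unadjusted p of 0.00411 and an edgeR adjusted p of 0.0629. Without control 1 it was 1.18 at an adjusted p of 0.0153. Fmod, the fibromodulin gene, was low, with 2 to 31 reads per library, and the 95% interval of its log2 fold change ran from −1.83 to 2.13, while its direction turned with total counts alone and without control 2 or knockout 3.

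As a group, 3 of the 5 small leucine-rich proteoglycans rose, 4 had an unadjusted p under 0.05, all higher, and the median log2 fold change was 1.17. Among 6 other tested genes of the family, a list drawn up after these values were seen, none was called by edgeR, DESeq2 or limma-voom and 1 had an unadjusted p under 0.05 in edgeR, Ecm2 (log2 fold change 1.00, adjusted p 0.190). All 6 had a positive log2 fold change, with a median of 0.53. Aspn, the asporin gene, also on chromosome 13, stood at 16.0, 14.2 and 26.0 CPM in the controls and 21.8, 23.4 and 36.5 CPM in the knockouts, and its groups overlapped.

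Dcn and Lum lie in the same orientation on chromosome 10, 46984 bases apart, with no protein-coding gene between them. Both rose. Another 3 pairs of members lie within 200000 bases of each other: Col3a1 and Col5a2 on chromosome 1, 24614 bases apart, Col6a1 and Col6a2 on chromosome 10, and Col4a1 and Col4a2 on chromosome 8, head to head with an overlap of 22 bases. None of the genes in these 3 pairs was called by edgeR.

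The bases upstream of 2 of the proteoglycan genes are shown because both genes stood higher in every knockout library, 1 of them called. They come from RefSeq promoter windows on GRCm38.p6, which held 28 of the 43 members. Each line gives the 250 bases before the RefSeq start on the plus strand, for Ogn chr13:49607765-49608014 and for Bgn chrX:73483351-73483600, both just outside the annotated gene. Capitals mark a match to any of 4 motifs searched on both strands: the TATA box TATAAA, the CCAAT box, the Sp1 box GGGCGG and the AP-1 site TGANTCA.
Ogn: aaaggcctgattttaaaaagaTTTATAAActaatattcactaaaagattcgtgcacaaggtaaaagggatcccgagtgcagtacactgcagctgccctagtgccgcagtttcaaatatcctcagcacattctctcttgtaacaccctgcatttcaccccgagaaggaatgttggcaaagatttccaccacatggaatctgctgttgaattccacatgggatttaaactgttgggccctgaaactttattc
Bgn: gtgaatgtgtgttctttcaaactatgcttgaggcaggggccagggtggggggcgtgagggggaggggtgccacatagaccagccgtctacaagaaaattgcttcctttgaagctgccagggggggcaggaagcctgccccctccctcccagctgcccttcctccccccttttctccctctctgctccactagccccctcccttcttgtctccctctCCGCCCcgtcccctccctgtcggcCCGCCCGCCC
Ogn held TATAAA on the reverse strand 229 bases upstream and, overlapping it, on the forward strand 227 bases upstream, and its window had a GC content of 42.0%. Bgn held 3 matches to GGGCGG, all on the reverse strand, 34, 10 and 6 bases upstream, of which the last 2 overlap, in a window with 64.4% GC. Of the 33 windows of the members, 57.6% held GGGCGG, 15.2% TATAAA, 24.2% CCAAT and 3.03% TGANTCA. Over all 32851 windows the shares were 32.7%, 12.4%, 33.9% and 6.75%. A match is a description of these letters only.

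The 2 secreted protein genes that rose are short. Mgp, matrix Gla protein, an inhibitor of calcification (chr6:136872435-136875823, minus strand), stood at 25.0, 26.7 and 31.6 CPM in the controls and 78.1, 81.9 and 65.1 CPM in the knockouts. Controls and knockouts were far apart relative to the spread within each. It moved 2.7-fold, from 27.8 ± 3.41 CPM to 75.0 ± 8.82 CPM, for a log2 fold change of 1.43 with SE 0.18 at an edgeR adjusted p of 0.0101. Sparc, also called osteonectin, a collagen-binding glycoprotein (chr11:55394500-55423183, minus strand), stood at 181, 159 and 217 CPM in the controls and 471, 451 and 429.6 CPM in the knockouts. No control reached a knockout, and the log2 fold change was 1.28 with SE 0.17, 2.43-fold from 186 ± 29.4 CPM to 451 ± 20.9 CPM, at an edgeR adjusted p of 0.0111.

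Of the other 7 glycoprotein and elastic fibre genes edgeR called none, DESeq2 called Postn higher and Fn1 lower, and limma-voom called Postn higher and Fn1 and Fbln1 lower. Fn1, fibronectin, an adhesion protein that binds integrins and collagen (chr1:71585520-71653200, minus strand), stood at 113, 123 and 107 CPM in the controls and 62.7, 61 and 92.4 CPM in the knockouts. All knockouts were below all controls, with knockout 3 nearest to them, and the log2 fold change of −0.67 with SE 0.18 had an unadjusted p of 0.00398 and an edgeR adjusted p of 0.0620. Without knockout 3 the log2 fold change was −0.89 and without knockout 2 it was −0.56. Fn1 overlaps exons of Apol7d on the other strand, and without a stated strand setting their reads cannot be separated. Exons of Col5a1, Col4a1, Col4a2, Col15a1, Lama2, Nid1, Fbn1, Eln, Tnc and Lox likewise overlap another annotated gene on the other strand, and those of Col3a1 one on the same strand.

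Fbln1, the basement membrane and elastic fibre protein fibulin-1 (chr15:85205949-85286535, plus strand), stood at 45, 34.8 and 34.5 CPM in the controls and 22.0, 23.3 and 29.6 CPM in the knockouts. The groups did not overlap, and its log2 fold change of −0.61 with SE 0.20 did not pass (edgeR adjusted p 0.105). Postn, periostin, a matricellular protein of fibroblasts (chr3:54361109-54391037, plus strand), was 29.9, 12.6 and 15.3 CPM in the controls and 45.4, 44.2 and 27.4 CPM in the knockouts. The groups overlapped, with control 1 above knockout 3, and the log2 fold change of 1.02 with SE 0.33 had an edgeR adjusted p of 0.0947. Without control 1 it was 1.47 at an adjusted p of 0.0231. The remaining 4 genes of the group, Fbn1, Fbln2, Eln and Tnc, had log2 fold changes of 0.28, 1.01, 0.46 and 1.07 with unadjusted p values of 0.114 to 0.283. Tnc, tenascin-C, had only 3 to 24 reads per library. In the whole group 2 of 9 rose and none fell by edgeR, and the median log2 fold change was 1.01, which was 0.59 without control 1 and 0.64 without control 3.

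**Figure D2:**
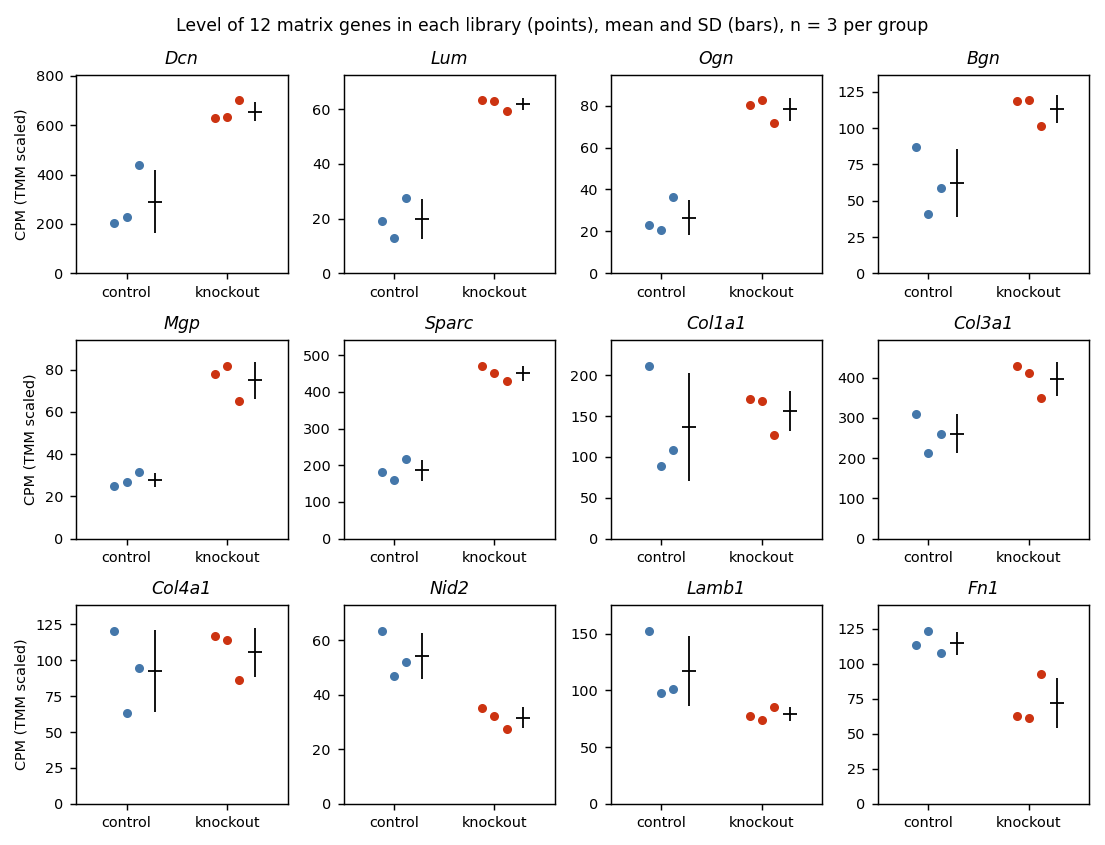
Level in CPM with TMM scaling of 12 matrix genes in each control (blue) and knockout (red) library, with the mean and SD of each group of 3 as bars. For Dcn, Lum, Ogn, Bgn, Mgp, Sparc and Col3a1 every knockout point is above every control point, for Nid2, Lamb1 and Fn1 every one is below, and for Col1a1 and Col4a1 the groups overlap.

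Fibrillar collagen genes stood higher in mean level in the knockouts, but none of the 5 was called by edgeR. Col3a1, the type III chain of reticular fibres, had the highest level of the group at 309, 212 and 261 CPM in the controls and 429.8, 412 and 349.7 CPM in the knockouts. Its groups did not overlap, and the log2 fold change of 0.61 with SE 0.18 had an unadjusted p of 0.00739 and an edgeR adjusted p of 0.0826. Col1a2, a type I chain (chr6:4504814-4541544, plus strand), stood at 250.4, 139.6 and 196 CPM in the controls and 322, 331 and 239 CPM in the knockouts. Knockout 3 was below control 1, and the log2 fold change was 0.61 with SE 0.22 at an adjusted p of 0.134. Col5a2, a chain of the type V collagen that nucleates fibrils (chr1:45374321-45503282, minus strand), stood at 31.0, 25.3 and 18.3 CPM in the controls and 38.6, 38.5 and 36.7 CPM in the knockouts. All knockouts were above all controls, and the log2 fold change was 0.61 with SE 0.22 at an adjusted p of 0.123.

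The other 2 fibrillar chains overlapped between genotypes. Col1a1 (chr11:94936224-94953042, plus strand) stood at 212, 88.5 and 109 CPM in the controls and 171, 169 and 127 CPM in the knockouts, so that control 1 was the highest of the 6 libraries. Its log2 fold change was 0.19 with SE 0.29 (95% interval −0.44 to 0.82), and it turned to −0.12 with total counts alone and to −0.027 without control 2. Col5a1 had one of 0.13 with SE 0.28, which turned to −0.15 with total counts alone, and was also below 0 without control 3 or knockout 1. In the whole group 3 had an unadjusted p under 0.05 by edgeR, and the median log2 fold change was 0.61. With all 6 libraries DESeq2 called Col3a1 higher, and limma-voom called 4 higher, Col1a1, Col1a2, Col3a1 and Col5a2. With a trend of each library with gene length and GC content removed, edgeR called Col1a2, Col3a1 and Col5a2, where 1.69% of all genes were called higher.

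Col1a1 and Col1a2 encode the chains that combine in type I collagen. Reads per kilobase of Col1a1 over those of Col1a2 gave ratios of 0.763, 0.571 and 0.50 in control libraries and 0.479, 0.460 and 0.481 in knockout libraries. All knockouts were lower and close together, and control 1 was the highest. For Col4a1 over Col4a2 the ratios were 1.93, 1.96 and 2.43 in control libraries and 2.17, 1.94 and 1.85 in knockout libraries, which overlapped. These pairs were chosen with the genes' values known and are given without a test.

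Type VI collagen forms beaded filaments near cells, and edgeR called none of the 3 chains among the members. Col6a1 (chr10:76708792-76726168, minus strand) stood at 96.8, 47.0 and 67.1 CPM in the controls and 82.5, 77.3 and 68.1 CPM in the knockouts. Control 1 was above all knockouts and the other controls below them, and the log2 fold change was 0.11 with SE 0.23 (95% interval −0.40 to 0.63), or −0.20 with total counts alone and −0.10 without control 2. Col6a2 (chr10:76595762-76623630, minus strand) stood at 49.2, 25.9 and 31.2 CPM in the controls and 47.6, 47.0 and 37.2 CPM in the knockouts. Control 1 was again the highest, and the log2 fold change was 0.31 with SE 0.24 at an edgeR adjusted p of 0.476. Col6a3 had one of 0.089, which turned negative with total counts alone and without control 2 or control 3.

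The fibril-associated collagen genes Col12a1 and Col14a1 were low and uneven. Col12a1 had 34, 6 and 7 reads in control libraries and 21, 33 and 16 in knockout libraries, and Col14a1 had 180, 58 and 61 reads in control libraries and 62, 63 and 62 in knockout libraries. In both genes, control 1 held far more reads than the other controls. Col14a1 had a log2 fold change of −0.68 with SE 0.49, which was 0.16 without control 1, and Col12a1 one of 0.56 with SE 0.85. None of the 5 genes of the group was called by edgeR or DESeq2, limma-voom called Col6a2 higher, none had an unadjusted p under 0.05 in edgeR, and all 5 overlapped between genotypes. The group's median of 0.11 turned to −0.20 with total counts alone and −0.067 without control 2.

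Among 14 basement membrane genes 1 fell and 13 did not pass in edgeR. DESeq2 also called 1 lower, Nid2, and limma-voom 3 higher (Col4a1, Col4a2 and Lama2) and 2 lower (Lamb1 and Nid2), while none of the 3 tools called any with knockout 1 and 2 as 1 library. Nid2 (chr14:19751265-19811787, plus strand) had 665, 495 and 679 reads in control libraries and 379, 356 and 304 in knockout libraries, or 63.5, 47.0 and 52.0 CPM in the controls and 35.2, 32.3 and 27.4 CPM in the knockouts. Every knockout was below every control. It moved from 54.2 ± 8.47 CPM to 31.6 ± 3.97 CPM (SD, n = 3 per group), 1.71-fold lower, for a log2 fold change of −0.78 with SE 0.19 and an edgeR adjusted p of 0.0425. Nid2 overlaps exons of Rtraf on the other strand. Removing the length and GC trend gave −0.68 with an adjusted p of 0.0514.

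Nid1, which encodes the other nidogen, linked to laminin and type IV collagen in the same way, was called by none of the 3 tools. It stood at 101, 76.4 and 54.8 CPM in the controls and 73.6, 78.6 and 70.6 CPM in the knockouts, with overlapping groups and a log2 fold change of −0.056 with SE 0.21 (95% interval −0.51 to 0.40), which was above 0 without control 1, in limma-voom and after removal of the length and GC trend. Nid1 reads over Nid2 reads gave 1.58, 1.63 and 1.05 in control libraries and 2.09, 2.44 and 2.58 in knockout libraries, so that every knockout ratio was above every control ratio. This ratio too was chosen with its values known.

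Laminins are 3-chain glycoproteins that cells bind through integrins. Lamb1, the beta-1 chain (chr12:31265234-31329644, plus strand), stood at 153, 97.9 and 101 CPM in the controls and 77.7, 73.6 and 85.5 CPM in the knockouts. All knockouts were below all controls, control 1 was far above the others, and the log2 fold change of −0.57 with SE 0.19 had an unadjusted p of 0.0126 and an edgeR adjusted p of 0.104. Without control 1 it was −0.33. Lamc1, the gamma-1 chain, had a log2 fold change of −0.25 with SE 0.24, or 0.047 without control 1, and Lamb2 one of −0.061 with SE 0.46, which was above 0 in the same settings and without knockout 3. The 4 alpha chains pointed the other way without passing: Lama1 0.92, Lama4 0.73, Lama2 0.54 and Lama5 0.48 in log2 fold change, with edgeR adjusted p values from 0.281 to 0.603.

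Of the genes of type IV collagen, the network of the sheet, neither member, Col4a1 or Col4a2, was called by edgeR or DESeq2. Limma-voom called both higher. Col4a1 stood at 121, 63.3 and 94.5 CPM in the controls and 117, 114 and 86.0 CPM in the knockouts. The groups overlapped, with control 1 highest and control 2 lowest, and the log2 fold change of 0.19 with SE 0.23 (95% interval −0.31 to 0.69) turned to −0.11 with total counts alone and −0.014 without control 2. Col4a2 had one of 0.25 with SE 0.24, or −0.052 with total counts alone. Col15a1 and Col18a1, basement membrane collagens with long side chains of sugar, had log2 fold changes of 1.09 and 0.51 and adjusted p values of 0.216 and 0.302. Hspg2, the perlecan gene, had 13 to 25 reads per library, and its 95% interval of −1.34 to 1.65 allows a change in either direction. The median of the 14 genes was 0.22, or −0.083 with total counts alone.

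Genes that crosslink or remodel matrix were higher in mean level without passing in edgeR. Timp1, a tissue inhibitor of metalloproteinases (chrX:20870166-20874735, plus strand), stood at 22.7, 36.6 and 52.0 CPM in the controls and 72.6, 69.0 and 64.7 CPM in the knockouts. The groups did not overlap, control 1 was the lowest library, and the log2 fold change of 0.89 with SE 0.26 had an unadjusted p of 0.00544 and an edgeR adjusted p of 0.0719. Without control 3 it was 1.21 at an adjusted p of 0.0320. Lox, lysyl oxidase, which crosslinks collagen and elastin, stood at 20.3, 16.1 and 9.27 CPM in the controls and 24.7, 25.6 and 21.5 CPM in the knockouts. No control reached a knockout, and the log2 fold change was 0.65 with SE 0.29 at an adjusted p of 0.194.

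Timp2, a related inhibitor (chr11:118301069-118355740, minus strand), stood at 29.0, 32.7 and 24.1 CPM in the controls and 31.6, 33.5 and 32.3 CPM in the knockouts, with overlapping groups and a log2 fold change of 0.18 with SE 0.19 (95% interval −0.24 to 0.60), negative with total counts alone. Mmp2, the gelatinase that TIMP2 binds, had a log2 fold change of 0.72 with SE 0.34 at an adjusted p of 0.223, and Timp3 one of 0.27 with SE 0.38. Timp3 lies inside Syn3, whose exons it overlaps on the other strand. Of the 5 genes none was called by edgeR, 2 had an unadjusted p under 0.05, both higher, DESeq2 called Timp1, and limma-voom called 3. Their median log2 fold change was 0.65.

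Set side by side, the groups took different shares of each library. Small leucine-rich proteoglycans took 0.0416%, 0.0291% and 0.0618% of counted reads in control libraries and 0.0823%, 0.0834% and 0.0832% in knockout libraries. No control reached a knockout, and the 3 knockouts were nearly equal. Fibrillar collagens took 0.102%, 0.0460% and 0.0656% in control libraries and 0.0910%, 0.0899% and 0.0682% in knockout libraries, so that control 1 was the highest library. Basement membrane genes took 0.0723%, 0.0355% and 0.0439% in control libraries and 0.0406%, 0.0410% and 0.0342% in knockout libraries, which also overlapped. Control 1 had the fewest reads and the highest TMM factor, 1.24 against 0.891 to 1.10 in the others, so its shares of reads sit higher than its CPM values.

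**Figure D3:**
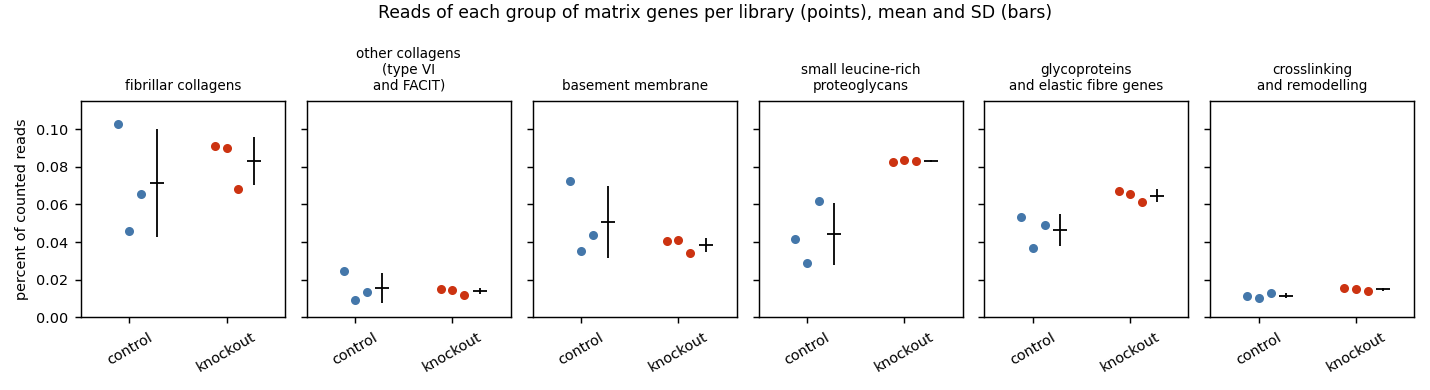
Percent of counted reads taken by each of the 6 groups of matrix genes in each control (blue) and knockout (red) library, with mean and SD of 3 libraries as bars. The small leucine-rich proteoglycans sit at 0.0823% to 0.0834% in the knockouts and at most 0.0618% in the controls, while fibrillar collagens and basement membrane genes overlap.

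Ratios within a library do not depend on its scaling. Small leucine-rich proteoglycan reads over basement membrane reads were 0.576, 0.818 and 1.41 in control libraries and 2.03, 2.04 and 2.43 in knockout libraries. Fibrillar collagen reads over basement membrane reads were 1.42, 1.29 and 1.5 in control libraries and 2.24, 2.19 and 2.00 in knockout libraries. In both ratios every knockout was above every control. Median transcript length was 2448 bases for the proteoglycans and 6270.5 for basement membrane genes, and fold changes went with length over all genes, as given below. That trend was not removed from the ratios. Small leucine-rich proteoglycan reads over fibrillar collagen reads were 0.406, 0.632 and 0.941 in control libraries and 0.905, 0.928 and 1.22 in knockout libraries, where control 3 was above 2 of the knockouts.

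Compared per kilobase of transcript, Dcn was the highest member in both genotypes, moving from 165 ± 73.2 to 372 ± 22.4 CPM per kilobase (SD, n = 3 per group). Sparc was next, from 80.8 ± 12.8 to 196 ± 9.07, followed in the controls by Col3a1, from 46.8 ± 8.65 to 71.4 ± 7.55, and Mgp, from 45 ± 5.53 to 122 ± 14.3. In the knockouts Mgp stood above Timp1, which moved from 42.0 ± 16.6 to 77.9 ± 4.47, and above Col3a1. In the controls the means of Col3a1, Mgp and Timp1 differed by less than the SD of Timp1. Among basement membrane genes Lamb1 was the highest per kilobase in controls, from 20.2 ± 5.31 to 13.6 ± 1.05, and Col4a1 in knockouts, from 14 ± 4.33 to 16.0 ± 2.58, where the difference between the 2 genes was within their SDs.

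Libraries of 1 genotype were not alike. Of the 43 members, 15 had their highest level in control 1 and only 2 and 1 in controls 2 and 3, while 21 had their lowest level in control 2. The highest level fell in knockout 1 for 12 members, in knockout 2 for 10 and in knockout 3 for 3. The 15 genes highest in control 1 include Col1a1, Col4a1, the 3 type VI chains, Lamb1 and Nid2, and none of the 5 that rose.

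**Figure D4:**
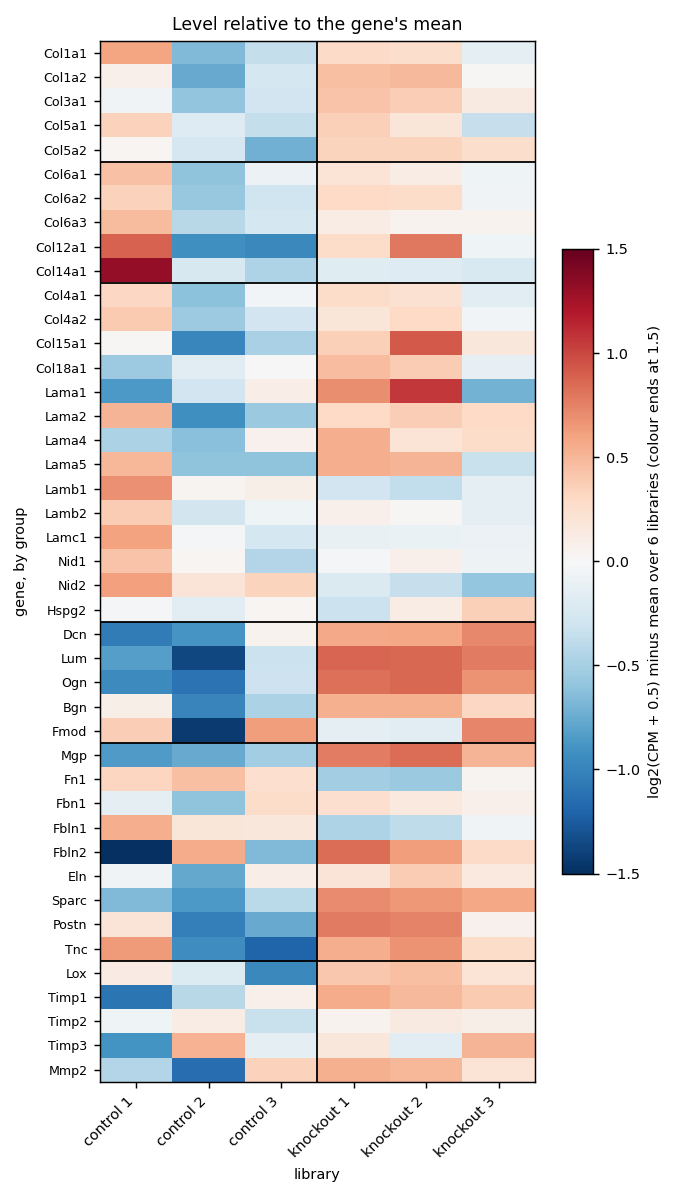
Level of each of the 43 matrix genes (lines, by role group) in each library (columns), as log2(CPM + 0.5) minus the gene's mean over the 6 libraries; red is above and blue below that mean. Dcn, Lum, Ogn, Mgp and Sparc are blue or near white in the controls and red in the knockouts, while many collagens are red in control 1 and blue in control 2.

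Fold changes in these libraries went with transcript length over all genes, and the role groups differ in length. In 10 bins of all tested genes with a length, the median log2 fold change went from 0.34 in the shortest bin (102 to 1230 bases) to −0.23 in the longest. The share of genes called higher went from 5.69% to 0.360%, and the share called lower from 0.216% to 6.70%. Median transcript length was 2448 bases for small leucine-rich proteoglycans, 5930 for fibrillar collagens and 6270.5 for basement membrane genes. Measured against the median of their own length bin, log2 fold changes were 1.59 for Lum, 1.5 for Ogn, 1.23 for Sparc, 1.10 for Mgp, 0.96 for Dcn and −0.59 for Nid2. After removal of the trend with length and GC content, all 5 genes that rose were still called higher by edgeR, and Bgn was called higher as well. The group medians in that setting were 1.18 for small leucine-rich proteoglycans, 0.79 for fibrillar collagens and 0.40 for basement membrane genes.

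**Figure D5:**
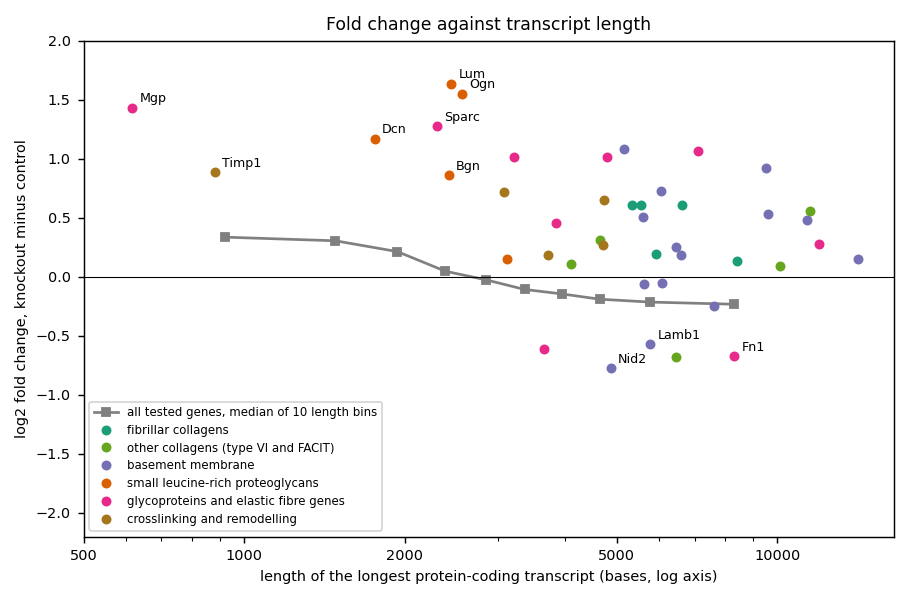
Log2 fold change of each matrix gene (coloured points) against the length of its longest protein-coding transcript in bases on a log axis, with the median of all tested genes in 10 length bins (grey squares joined by a line). The grey line goes from 0.34 to −0.23, and Lum, Ogn, Sparc, Dcn and Mgp lie above it while Nid2 lies below.

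Collagen chains are hydroxylated, folded and trimmed by a set of enzymes. Of 24 tested genes of folding and processing none was called by edgeR or DESeq2, limma-voom called 2 higher and 1 lower, and 3 were higher and 1 lower at an unadjusted p under 0.05. Numbers of tested genes in this and the other lists outside the members are those of edgeR. DESeq2 tested more genes in several of them, 26 in this one. The median log2 fold change was 0.23, and 0.0060 with total counts alone. P4hb, a subunit of prolyl hydroxylase, had one of −0.42 with SE 0.15, and Ppib, cyclophilin B, which helps collagen fold, one of 0.65 with SE 0.24, with edgeR adjusted p values of 0.123 and 0.130. Bmp1, the procollagen C-proteinase, and Pcolce, its enhancer, had 0.86 and 0.68 without passing. These 4 are the genes of the list with an unadjusted p under 0.05, named after their values were seen.

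Of 21 other collagen chain genes tested by edgeR, Col6a5, a further type VI chain, rose, with 56, 31 and 25 reads in control libraries and 131, 121 and 114 in knockout libraries and a log2 fold change of 1.72 with SE 0.41 (edgeR adjusted p 0.0417). Their median was 0.42. With knockout 1 and 2 as 1 library limma-voom called 1 of these chains and edgeR and DESeq2 none. Of 19 other basement membrane genes none was called by edgeR or DESeq2, limma-voom called 2 higher and 1 lower, and 1 had an unadjusted p under 0.05, Smoc1 (log2 fold change 0.65). The median was −0.19, and 0.083 in limma-voom. Of 3 further laminin chains none was called by edgeR or DESeq2, none had an unadjusted p under 0.05 in edgeR, and limma-voom called 1 lower.

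Among 27 genes of matrix receptors 1 fell and none rose, and the median log2 fold change was −0.15, which was 0.060 in limma-voom. Itga6, the laminin-binding integrin alpha-6 chain, was the one called by edgeR, with 977, 779 and 1102 reads in control libraries and 427, 488 and 475 in knockout libraries and a log2 fold change of −0.99 with SE 0.16 (adjusted p 0.0138). No control was as low as any knockout. DESeq2 called 3 receptors lower, and limma-voom 4 higher and 5 lower.

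Of 23 genes of TGF-beta and CCN signalling, the pathway best known for inducing matrix genes, Smad4 fell (log2 fold change −0.68 with SE 0.17, edgeR adjusted p 0.0463) and none rose. The median was −0.15, or 0.079 in limma-voom, and 6 were lower and 1 higher at an unadjusted p under 0.05. DESeq2 called 1 higher and 2 lower, and limma-voom 1 and 3. Of 27 other matrix proteases and inhibitors Mmp23 rose, with 26, 16 and 7 reads in control libraries and 73, 76 and 103 in knockout libraries and a log2 fold change of 2.35 with SE 0.55 (adjusted p 0.0395). That call did not hold once the trend with length and GC was removed. The median of that list was 0.11, or −0.078 with total counts alone, and DESeq2 and limma-voom each called 3 higher and 1 lower. With knockout 1 and 2 as 1 library edgeR called no gene of the 5 pathway lists, while DESeq2 and limma-voom each called 2 receptors lower and 1 protease or inhibitor gene higher.

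Markers of several other cell types also differed between the genotypes by edgeR. For peritubular myoid and smooth muscle cells, 3 of 10 tested markers rose, Acta2, Actg2 and Myl9, and none fell, with a median log2 fold change of 1.08. The direction was positive for 8 markers and negative for 2, Mylk (−0.43) and Lmod1 (−0.72), none of these 2 called. The summed level of the list was 169 to 207 CPM in the controls and 373 to 495 CPM in the knockouts, though Tagln had at most 5 reads in any library. Within that sum, mean Acta2 went from 60.8 to 182 CPM and mean Myl9 from 83.6 to 208 CPM. For fibroblasts and stromal progenitors 1 of 14 rose, Cd34 (log2 fold change 1.07), and the summed level was 260 to 350.4 CPM in the controls and 348 to 355 CPM in the knockouts. Pdgfra, a receptor gene that marks stromal cells, had 745, 431 and 618 reads in control libraries and 498, 486 and 472 in knockout libraries, a log2 fold change of −0.26. Dcn reads over Pdgfra reads were 2.87, 5.61 and 9.26 in control libraries and 13.6, 14.4 and 16.5 in knockout libraries, and Lum over Pdgfra 0.270, 0.318 and 0.578 against 1.36, 1.43 and 1.40. Both ratios were higher in every knockout than in every control. Pdgfra was picked as the divisor with its values known. Of the 14 fibroblast and stromal markers, 10 had a positive and 4 a negative log2 fold change, with a median of 0.22. The Pdgfra transcript is 6834 bases long, against 1758 for Dcn and 2448 for Lum. The trend of fold changes with length was not removed from these ratios.

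For Sertoli cells 3 of 15 tested markers rose, Cldn11, Clu and Cst12, while Amh had at most 2 reads. Log2 fold changes were positive for 11 and negative for 4, with a median of 0.41. At an unadjusted p under 0.05 in edgeR, 4 were higher and 1 lower, Nr5a1 (log2 fold change −0.93). The summed level was 141 to 158 CPM in the controls and 242 to 252 CPM in the knockouts. Within it, mean Clu went from 30.6 to 90.3 CPM. For T cells, which also carry THY1, 3 of 9 rose, Cd3g, Trbc2 and Lck, with 34.5 to 42.7 CPM against 73.3 to 97.4 CPM. In that list 7 markers had a positive and 2 a negative log2 fold change, with a median of 0.84. None of 9 pericyte, 8 Leydig, 13 endothelial and 12 macrophage markers was called by edgeR. At an unadjusted p under 0.05, 3, 2, 3 and 4 of them were higher and 1 pericyte marker lower. DESeq2 called 2, 2, 1 and 2 of them higher, and limma-voom 3, 2, 2 and 1. Both tools called 1 pericyte marker lower, and limma-voom also 1 macrophage marker. Their summed levels were 426 to 639.5, 65.9 to 121, 83.7 to 93.9 and 954 to 2009 CPM in the controls and 411 to 463, 126 to 146, 120.4 to 133 and 2183 to 3048 CPM in the knockouts. The pericyte sum, with means of 564 and 445 CPM, was mostly Mcam, with means of 449 CPM in the controls and 271 CPM in the knockouts. Of the 9 pericyte markers 6 had a positive and 3 a negative log2 fold change, with a median of 0.38. Of 18 spermatogonial markers 5 fell and 1 rose. Log2 fold changes were negative for 13 and positive for 5, with a median of −0.51. At an unadjusted p under 0.05 in edgeR, 10 were lower and 2 higher. Their summed level, in which abundant genes weigh most, was 4744 to 6068 CPM in the controls and 5864 to 6421 CPM in the knockouts. With knockout 1 and 2 as 1 library edgeR called no marker of any of these lists. In that setting DESeq2 called 1 fibroblast, 2 myoid, 2 Sertoli, 1 T cell and 1 macrophage marker higher, and 1 spermatogonial marker higher and 3 lower. Limma-voom called 1 fibroblast, 3 myoid, 2 Sertoli, 1 T cell, 1 pericyte and 1 endothelial marker higher, and the same numbers of spermatogonial markers. In none of these lists was a marker at 0 in all controls or all knockouts. Mitochondrially encoded genes took 14% to 16.9% of reads in control libraries and 19.8% to 20.1% in knockout libraries, and leaving them out left all 6 calls in place.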

How the data were processed

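RNA was measured by SMART-seq2 in 3 control and 3 Ddx20 knockout libraries of THY1-positive spermatogonia, sequenced as paired reads of 150 bases per the labels' protocols. The table the authors deposited holds raw read counts for Ensembl genes. The submitters' processing notes name build mm10, StringTie 2.1.7, STAR 2.7.5c, Trimmomatic 0.39, edgeR and DESeq2, while the counter, its annotation and its strand setting were not given in the sources used here. Where exons of 2 genes overlap on the 2 strands, their reads may be mixed, and without molecular identifiers PCR copies can be counted more than once. The deposited table also holds 1 column of sums and 1 of means, which were not used. Depth was 8428871 to 12497967 counts, and 22562 of 22579 identifiers matched GENCODE M21.

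Counts were tested in R 4.3.3 with edgeR 4.0.16 and its quasi-likelihood F test (robust dispersion, TMM scaling, filterByExpr, genotype as the only term, all 6 libraries), two-sided, with Benjamini-Hochberg adjustment over the 14766 genes tested. The standard error of a log2 fold change is its size over the square root of F, and 95% intervals use the t distribution with the test's degrees of freedom. CPM are counts scaled to a fixed TMM-adjusted library size, and levels per kilobase use the longest protein-coding transcript. Alternatives were DESeq2 1.42.0, limma 3.58.1 (voom with sample quality weights), other scalings and filters, a block for the replicate number, leaving out single libraries or the mitochondrially encoded genes, knockout 1 and 2 counted as 1 library (their rounded mean), and a lowess trend with exon length and GC content removed (span 0.3). DESeq2 and limma with that pair as 1 library were added after seeing the data. The scripts were tested on simulated data. The members, role groups, pathway lists and marker lists were chosen with earlier results of these data known, and no list was tested as a set. Per-library values were given for every called member, every member with an unadjusted p under 0.05 and the 2 members with the highest mean CPM in each role group, and the called genes of each pathway list were named, up to 4 by smallest p. Any other names were chosen after their values were seen.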

Additional observations from a re-analysis of the deposited data

How the results depend on the processing

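All 6 called members kept their direction in all 18 alternatives. Lum, Ogn, Mgp and Sparc were called in 14 of these, Dcn in 12 and Nid2 in 8, with highest adjusted p values of 0.0762, 0.0620, 0.0618, 0.0657, 0.145 and 0.199. With total counts alone 1378 genes, 3 lower members and 8 lower pathway genes were called. The medians were then 0.31 for fibrillar collagens, −0.20 for type VI and fibril-associated collagens, −0.083 for basement membrane genes and 0.37 for crosslinking genes. Members that reversed in that setting were Col1a1 (−0.12), Col5a1 (−0.15), Col6a1 (−0.20), Col6a3 (−0.21), Col4a1 (−0.11), Col4a2 (−0.052), Hspg2 (−0.12), Fmod (−0.18) and Timp2 (−0.075). With no filter on low counts 2 members and 4 pathway genes were called lower. DESeq2 called 1587 genes, 9 members higher and 2 lower, and 4 pathway genes higher and 6 lower. Limma-voom called 2882 genes, 18 members higher and 4 lower, and 12 pathway genes higher and 11 lower, with medians of 0.55 for basement membrane and 0.84 for crosslinking genes. It reversed Lamb2 (0.17), Nid1 (0.081), Hspg2 (−0.0045) and Timp3 (−0.079). With knockout 1 and 2 as 1 library edgeR called 1 gene, 0 members and 0 pathway genes in either direction, DESeq2 466 genes and 0 members lower, and limma-voom 9 members higher and 0 lower, with Lamb2 at 0.077 and Nid1 at 0.032. With the length and GC trend removed 9 members were called higher and 0 lower, 0 pathway genes were called higher, and Lamb2 (0.073) and Nid1 (0.095) reversed. With mitochondrially encoded genes left out, the difference in the share of reads, knockout minus control in percentage points, was 0.0518 for small leucine-rich proteoglycans, 0.0263 for glycoproteins and 0.00493 for crosslinking genes, where it was 0.0388, 0.0184 and 0.00328 with all genes. With the replicate number as a block 683 genes, 8 members higher and 1 lower were called. Deviations of same-numbered libraries from their group means had correlations of −0.004, 0.009 and 0.006. These are near 0 and show no pairing by number, but they cannot tell whether libraries shared a litter or a preparation.

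Leaving out 1 library at a time gave 3 to 839 genes, 0 to 9 higher and 0 lower members, and 0 to 2 higher and 0 to 3 lower pathway genes. Medians ran from −0.067 to 0.41 for type VI and fibril-associated collagens, 1.04 to 1.59 for small leucine-rich proteoglycans, 0.59 to 1.16 for glycoproteins and 0.39 to 0.72 for crosslinking genes. Differences in share of reads ran from −0.00106 to 0.0272 percentage points for fibrillar collagens and from −0.00518 to 0.00256 for type VI and fibril-associated collagens. Log2 fold changes whose direction turned in at least 1 of these settings had these ranges: Col1a1 from −0.027 to 0.66, Col5a1 from −0.017 to 0.38, Col6a1 from −0.10 to 0.41, Col6a3 from −0.067 to 0.41, Col14a1 from −0.996 to 0.16 and Col4a1 from −0.014 to 0.42. The others were Lamb2 from −0.20 to 0.18, Lamc1 from −0.42 to 0.047, Nid1 from −0.25 to 0.18, Hspg2 from −0.065 to 0.37, Fmod from −0.35 to 0.66 and Timp3 from −0.032 to 0.71. The turn came without control 1 for Col14a1, Lamb2, Lamc1, Nid1 and Timp3, without control 2 for Col1a1, Col6a1, Col6a3, Col4a1 and Fmod, without control 3 for Col5a1 and Col6a3, without knockout 1 for Col5a1, and without knockout 3 for Lamb2, Hspg2 and Fmod. Fewer libraries entered these fits, and otherwise the cause of the changes was not tested. Low reads limit Fmod, Hspg2, Tnc and Col12a1 most.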
